A study of Mus musculus with 18 samples.

Results

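The low polysome fraction of microRNA-deficient Dgcr8 KO embryonic stem cells (ESCs) was compared with the monosome fraction of the same gradients. The question was which transcripts leaned to each of these fractions. The comparison used each library that carries the Dgcr8 KO label together with a low polysome or a monosome label, which gave 3 of each and thus 6 of the 18 libraries of the series. It was run across 12851 genes that passed a filter on low counts, of 51467 genes in the deposited table, and 11766 of those tested were protein-coding.

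The series holds polysome gradients of wild-type and Dgcr8 KO mouse ESCs, with 3 gradients per genotype. All cells were kept in Knockout DMEM with fetal bovine serum, LIF and the inhibitors PD0325901 and CHIR99021 (2i). Both genotypes received cycloheximide, which freezes ribosomes on the message, at 100 ug/ml for 2 minutes before lysis. From each 10 to 50% sucrose gradient a monosome, a low polysome (2 to 4 ribosomes) and a high polysome fraction were taken, and the 3′ ends of their transcripts were sequenced with the QuantSeq 3′ FWD kit. The wild-type line is V6.5, a mouse ESC line, and the Dgcr8 KO is a single line. Replicates are gradients of these lines, so p-values measure the spread between gradients and not between independently derived lines.

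A ribosome loads near the 5′ end of a message, moves along the coding sequence (CDS) and leaves at the stop codon, so the number of ribosomes on a message reflects how often they load, how fast they move and how long the CDS is. A single ribosome is found on messages that are rarely initiated or very short, whereas polysomes hold messages in active translation. The fractions were taken by position in the gradient. Whether an RNA counted in a fraction was bound by a ribosome was not tested. DGCR8 is the RNA-binding partner of the nuclease DROSHA, which cuts microRNA hairpins out of their primary transcripts, and ESCs without it lack canonical microRNAs.

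Totals were 1707918 to 2436888 counts in the KO monosome libraries and 3089222 to 3840124 counts in the KO low polysome libraries, so the monosome side was the shallower. A level of 3 counts, used below as the floor, corresponded to 0.781 to 1.76 CPM (counts scaled to a fixed library total) in these 6 libraries. The 10 ESC markers summed to 3480 to 3910 CPM in KO monosomes and 3880 to 4070 CPM in KO low polysomes. The 8 fibroblast markers summed to 3.49 to 9.01 and 4.17 to 25.5 CPM, with Lum, Dcn and Postn at 3 counts or fewer in all 6 libraries. The 6 primitive endoderm markers summed to 0.777 to 3.89 and 2.89 to 7.07 CPM, with Gata6, Sox17 and Sox7 at that floor. In both sums the highest low polysome library was replicate 1. It had 25.5 CPM of fibroblast markers, against 4.17 and 7.88 CPM in replicates 2 and 3. For endoderm markers it had 7.07 CPM, against 3.85 and 2.89 CPM. The 4 markers of epiblast-like cells summed to 76.6 to 117 CPM, with Fgf5 at 0 counts, and the 4 neural markers to 19.5 to 31.4 CPM. No marker of these 5 lists was called. Many fibroblast and endoderm markers lay near the floor, where a missing call says little. Dgcr8 itself (ENSMUSG00000022718) kept 3′ reads, with 47.3, 52.0 and 51.3 CPM in the KO monosome libraries and 39.0, 58.6 and 42.0 CPM in the low polysome libraries. The groups overlapped (log2 -0.10, SE 0.16, adjusted p = 0.62, limma), and 3′ reads do not check a deletion that lies elsewhere in the gene. Ddx6, a helicase of the microRNA pathway, stood at 173 ± 12.1 CPM in monosomes and 192 ± 9.42 CPM in low polysomes (mean ± SD, n = 3), also with overlapping groups (log2 0.15, SE 0.11, adjusted p = 0.261, limma).

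The libraries of each group were set against each other by a rule chosen after the values had been seen. In KO low polysome replicate 1, 23 genes stood at 10 CPM or more and at 4 times or more the level in both other libraries of its group, whereas each of the other 17 libraries had 0 such genes. Among them were the embryonic globin genes, with Hba-x at 194 reads against 3 and 3 in replicates 2 and 3 and Hbb-y at 1382 reads against 26 and 27. The imprinted noncoding RNA H19 had 502 reads against 13 and 24, the retinoid-binding gene Crabp1 146 reads against 9 and 13, and Lin28a, a suppressor of let-7 microRNAs, 48 reads against 4 and 6. These 23 genes took 0.121% of the counts of replicate 1, against 0.00709% and 0.00734% in replicates 2 and 3. Of the 23, 19 were tested and 11 were called higher in low polysomes. Without replicate 1, Hbb-y had a log2 ratio of -1.10 in place of 2.03 and H19 of -0.91 in place of 1.61. The monosome library of gradient 1 had 31 reads of Hbb-y, against 33 and 63 in gradients 2 and 3. It had 3 reads of Hba-x against 6 and 9, and 18 of H19 against 34 and 16. In KO high polysomes the highest library had 16.5 CPM of Hbb-y, 2.98 CPM of Hba-x and 11.2 CPM of H19. In bulk libraries, fewer cells of a type and less RNA per cell cannot be told apart. Another check, of genes at 50 CPM or more in all wild-type libraries and at 2 CPM or less in all KO monosome and high polysome libraries, found 0 genes to measure. What set replicate 1 apart was not tested, and results below include it. The named genes and gene lists whose calls change without it are given with the lists.

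**Figure D1:**
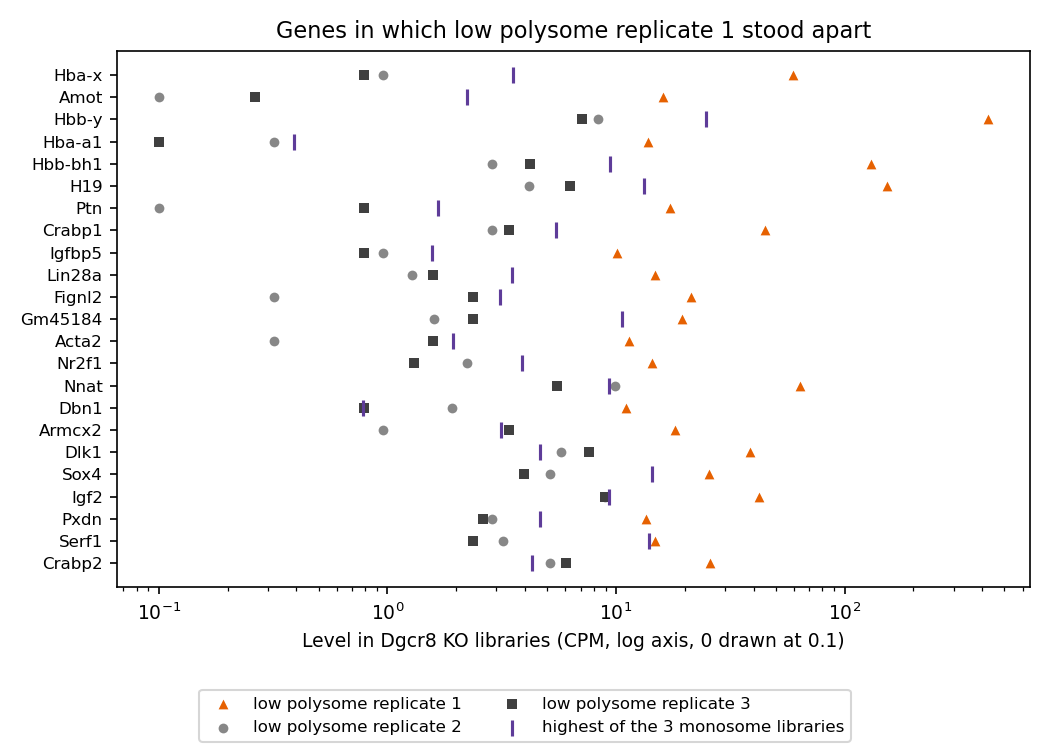
Level in Dgcr8 KO libraries (CPM, log axis) of the 23 genes in which low polysome replicate 1 stood at 4 times or more the level of both other low polysome libraries, with points for the 3 low polysome libraries and a bar at the highest monosome library. Replicates 2 and 3 lie to the left of replicate 1 in each row, and values of 0 are drawn at 0.1.

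In KO ESCs, 2167 genes (16.9% of those tested) differed between low polysomes and monosomes, which took a log2 ratio beyond 1 or -1 and a limma adjusted p below 0.05. The low polysome side held 828 of them (6.44%) and the monosome side 1339 (10.4%). Of the 2167 genes, 2130 moved in the direction of the call in all 3 gradients. The calls were made on these same gradients, so this count is not a separate check of them. The ratio is relative within each library, so a log2 ratio above 0 says that a gene took a larger share of the low polysome reads than of the monosome reads, and not that most of its molecules were there. Between KO gradients, the ratios of the 12851 genes had a Spearman's rho of 0.653 to 0.734, over genes and not over replicates. In 126 called genes (5.81%) all 3 libraries of a group held 3 counts or fewer, and the size of their ratio depends on the prior count. Without low polysome replicate 1, 2099 genes were called, and 1840 of these were among the 2167 with the same direction.

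**Figure D2:**
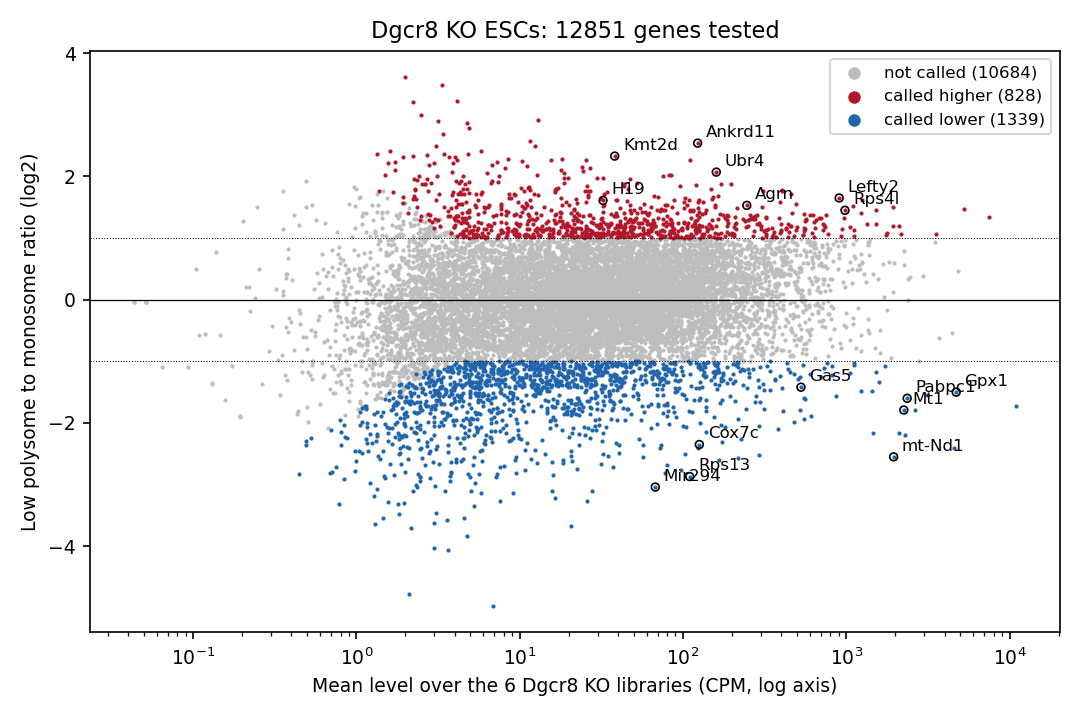
Low polysome to monosome ratio (log2) in Dgcr8 KO ESCs against the mean level over the 6 libraries (CPM, log axis), with 1 point per gene tested. Of 12851 genes, 828 were called higher and 1339 lower in low polysomes, past log2 ratios of 1 and -1.

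Among called genes with a mean count of 50 or more, those that leaned most to low polysomes mostly encode very large proteins. Ankrd11, which encodes a chromatin regulator, had 44.5, 32.6 and 33.3 CPM in the KO monosome libraries and 219, 215 and 194 CPM in the low polysome libraries. Each low polysome library was far above each monosome library, and the ratio was 5.80-fold (log2 2.54, SE 0.14, adjusted p = 2.34e-19, limma). The histone H3K4 methyltransferase gene Kmt2d rose from 12.6 ± 2.39 CPM to 63.8 ± 6.16 CPM (mean ± SD, n = 3, log2 2.33, SE 0.21, adjusted p = 7.33e-13). Zfhx2, a zinc finger homeobox gene, rose from 41.7, 35.3 and 39.2 CPM to 163, 211 and 178 CPM (log2 2.26, SE 0.14, adjusted p = 9.42e-18). The centrosome gene Cep250 (log2 2.26, SE 0.24), the ubiquitin ligase gene Hectd4 (2.26, SE 0.30), the polycystin gene Pkd1 (2.14, SE 0.23) and D630045J12Rik (2.11, SE 0.29) completed the 7 leaders with a CDS. Their coding sequences were 5823 nucleotides (D630045J12Rik) to 16767 nucleotides (Kmt2d) long. The other 3 were Gm42715 (2.09, SE 0.25), for which no CDS was selected here, and A930004J17Rik (2.29, SE 0.32) and Gm36936 (2.16, SE 0.26), which GENCODE classes as TEC, a label for transcribed regions still to be tested by experiment. In all 10 genes the 3 low polysome libraries lay above the 3 monosome libraries, which choosing the largest called ratios makes likely.

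By the same rule, the genes that leaned most to monosomes were largely noncoding. Gm37584, a long intergenic RNA, had 30.0, 45.4 and 39.2 CPM in the KO monosome libraries and 2.77, 4.17 and 1.84 CPM in the low polysome libraries, a 12.8-fold lower share (log2 -3.68, SE 0.33, adjusted p = 7.25e-13, limma). Snhg6, which hosts a small nucleolar RNA (snoRNA), fell from 177, 153 and 179 CPM to 19.4, 24.0 and 32.6 CPM (log2 -2.76, SE 0.16, adjusted p = 7.35e-19). Tsix, the antisense transcript of the X-inactivation locus, fell from 44.5, 93.6 and 56.4 CPM to 7.38, 17.3 and 5.52 CPM (log2 -2.72, SE 0.22, adjusted p = 3.56e-14). The microRNA host Mir124a-1hg (log2 -3.10, SE 0.25), 2900052L18Rik (-2.75, SE 0.26) and the pseudogene Gm13340 (-2.67, SE 0.22) lay in the same range. Of the 10 genes only Rps13, a small subunit ribosomal protein gene, is protein-coding, and it fell from 170, 238 and 176 CPM to 27.7, 28.5 and 22.9 CPM (log2 -2.87, SE 0.15, adjusted p = 9.53e-21). Its level is uncertain where copies share its sequence, since uniquely mapped reads were counted. The groups did not overlap in any of the 10, which the choice of genes again makes likely.

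**Figure D3:**
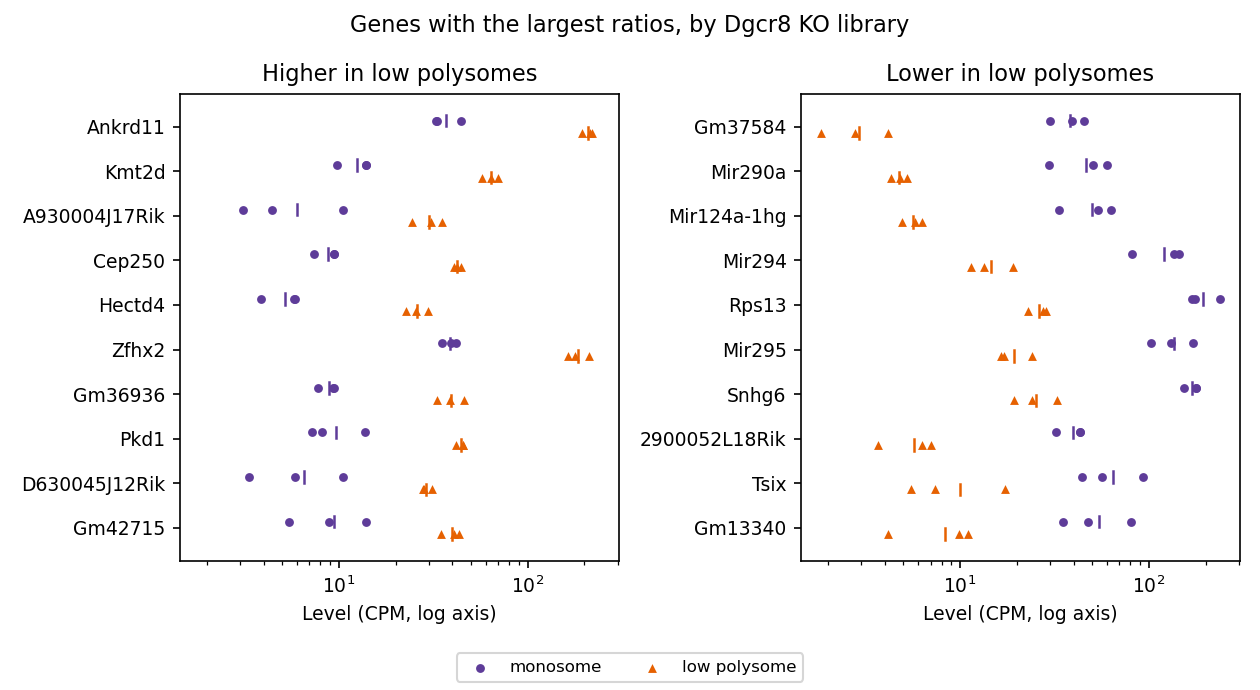
Level (CPM, log axis) of the 10 genes with the largest ratio in each direction by the naming rule, with 1 point per Dgcr8 KO library and a bar at the mean of 3. Monosome and low polysome libraries do not overlap in any of the 20 genes, which the naming rule makes likely because it takes the largest called ratios.

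The other 3 of the 10 were hairpin loci of the miR-290 cluster, the main microRNA cluster of mouse ESCs, whose primary transcript needs DGCR8 for cleavage. The mature 3p sequences of the hairpin loci tested are shown because the seed, bases 2 to 8 in capitals, defines the family of targets (RefSeq, GRCm38.p6).
miR-290a-3p: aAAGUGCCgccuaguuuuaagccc
miR-293-3p: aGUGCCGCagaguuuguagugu
miR-294-3p: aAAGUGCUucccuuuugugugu
miR-295-3p: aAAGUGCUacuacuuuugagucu
The seed is shared by miR-294-3p and miR-295-3p, and miR-290a-3p and miR-293-3p each have another. The reads counted here are 3′ end reads assigned to a hairpin locus and are not a measure of mature microRNAs. Which transcripts gave them was not tested. Mir290a (chr7:3218626-3218708, plus strand) had 29.5, 59.8 and 50.5 CPM in the KO monosome libraries and 4.30, 4.81 and 5.25 CPM in the low polysome libraries (log2 -3.26, SE 0.27, adjusted p = 9.74e-14, limma). Mir294 (chr7:3220641-3220724, plus strand) had 81.2, 136 and 145 CPM against 11.4, 19.2 and 13.4 CPM (log2 -3.04, SE 0.17, adjusted p = 4.86e-19). Mir295 (chr7:3220773-3220841, plus strand) had 103, 172 and 132 CPM against 17.2, 24.0 and 16.6 CPM (log2 -2.81, SE 0.15, adjusted p = 6.1e-20). In each locus the low polysome libraries lay below all monosome libraries, and Mir293 (chr7:3220343-3220422, plus strand), named after its values were seen, had a log2 ratio of -2.85, SE 0.31. The loci lie close together on the same strand, so they are not independent. In wild-type cells the log2 ratio was -2.46 for Mir290a, -2.73 for Mir293, -3.12 for Mir294 and -3.44 for Mir295. The KO minus wild-type change was not called for any of these (limma adjusted p = 0.206, 0.894, 0.96 and 0.395, SE 0.41, 0.39, 0.6 and 0.44). Wild-type low polysomes had 1.06, 0.558 and 1.2 CPM of Mir294 and 0.705, 1.95 and 3.01 CPM of Mir295. There, 3 counts correspond to 0.852 to 1.05 CPM. Monosome means were 8.97 and 22.1 CPM in wild-type cells, against 121 and 135 CPM in KO. For these loci the missing call does not show equal ratios.

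Noncoding transcripts as a class leaned to monosomes. Of 494 long noncoding RNAs (lncRNAs) tested, 266 were called lower (53.8%) and 16 higher (3.24%), against 7.83% and 6.46% of 11766 protein-coding genes. Their median log2 ratio was -1.35, against 0.03 for protein-coding genes. The medians of intergenic (-1.37, 222 genes), antisense (-1.43, 119 genes) and processed transcripts (-1.42, 95 genes) lay close to each other. By gradient, the lncRNA median minus the protein-coding median was -1.10, -1.05 and -1.16 in KO and -0.64, -0.64 and -0.70 in wild-type cells. The KO gradients were all below the wild-type gradients (exact permutation test over 3 and 3 gradients, two-sided p = 0.1, the smallest this design allows). The gap over the fitted ratios in KO was -1.37, and it was -0.47 when genes with low counts were kept.

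Within the lncRNAs, 16 of 17 snoRNA hosts were called lower and 0 higher, with a median of -1.83. Snhg12 had a log2 ratio of -2.50, SE 0.15, and Gas5, whose introns encode snoRNAs, of -1.42, SE 0.12. Of 24 nuclear and stem cell noncoding transcripts, 16 were called lower and 1 higher, namely H19, whose ratio turned negative without replicate 1. Malat1, a nuclear speckle RNA, fell from 6910, 9880 and 6300 CPM in monosomes to 1390, 1710 and 1240 CPM in low polysomes (log2 -2.40, SE 0.10, adjusted p = 4.73e-24, limma). Neat1, the scaffold of paraspeckles, fell from 241, 388 and 232 CPM to 41.2, 53.5 and 44.9 CPM (log2 -2.60, SE 0.12, adjusted p = 6.73e-22). Malat1 and Neat1 were chosen after their values were seen, and neither had overlapping groups. Kcnq1ot1, a long imprinted antisense RNA, was at 0.64, SE 0.21 and was not called. The median was negative too for 41 snoRNA loci (-1.49) and 294 processed pseudogenes (-0.76).

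TEC and sense intronic genes differed by where they lie. Of these, 136 lie within a protein-coding gene on the same strand, and 41 were called higher (30.1%) and 9 lower (6.62%), with a median of 0.63. The 36 that lie elsewhere had 6 called higher and 12 lower and a median of -0.65. In wild-type cells the medians were 0.35 and -0.67. Reads in loci of the former kind cannot be told apart from unspliced or alternative transcripts of the surrounding gene.

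The 7 mitochondrially encoded messages tested, which mitochondrial ribosomes translate inside the organelle, were all called lower. mt-Nd1, a subunit of complex I, fell from 3520, 3140 and 3290 CPM to 715, 476 and 536 CPM (log2 -2.55, SE 0.11, adjusted p = 1.05e-23, limma), and mt-Nd5 from 1010, 1020 and 960 CPM to 557, 393 and 447 CPM (log2 -1.11, SE 0.11, adjusted p = 3.16e-12). All 7 were called lower in wild-type cells as well.

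Among protein-coding genes the ratio moved with the length of the CDS at both ends of its range. Across 11763 genes with a CDS, Spearman's rho of CDS length and the KO ratio was 0.215, and it was 0.210, 0.152 and 0.238 in the 3 KO gradients. In wild-type gradients it was -0.063, -0.056 and -0.055, so the genotypes did not overlap (exact permutation test over 3 and 3 gradients, two-sided p = 0.1, the smallest possible). The coefficient was 0.169 in KO and 0.078 in wild-type for 3′ UTR length, -0.097 and -0.015 for CDS GC content, 0.108 and 0.123 for 5′ UTR GC content, 0.047 and 0.034 for 5′ UTR length, and 0.006 and 0.034 for the number of upstream AUG codons. These are descriptions across genes, whose features are related to each other.

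Split into 10 bins of CDS length, the 1177 genes with the longest CDS, of 3417 nucleotides or more, had a median log2 ratio of 0.63, with 293 called higher (24.9%) and 13 lower (1.10%). In the 82 genes with a CDS over 9000 nucleotides, the median was 1.13 and 44 were called higher and 1 lower. The 1181 genes with the shortest CDS, of 78 to 525 nucleotides, had a median of -0.40, with 19 called higher (1.61%) and 231 lower (19.6%). In the bins between, the medians were between -0.08 and 0.09. Within the short end, the 81 genes with a CDS of at most 225 nucleotides had a median of -1.19, with 50 called lower and 0 higher and 77 below 0. The next 168 genes, of 228 to 300 nucleotides, had a median of -0.70, with 50 called lower and 2 higher.

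**Figure D4:**
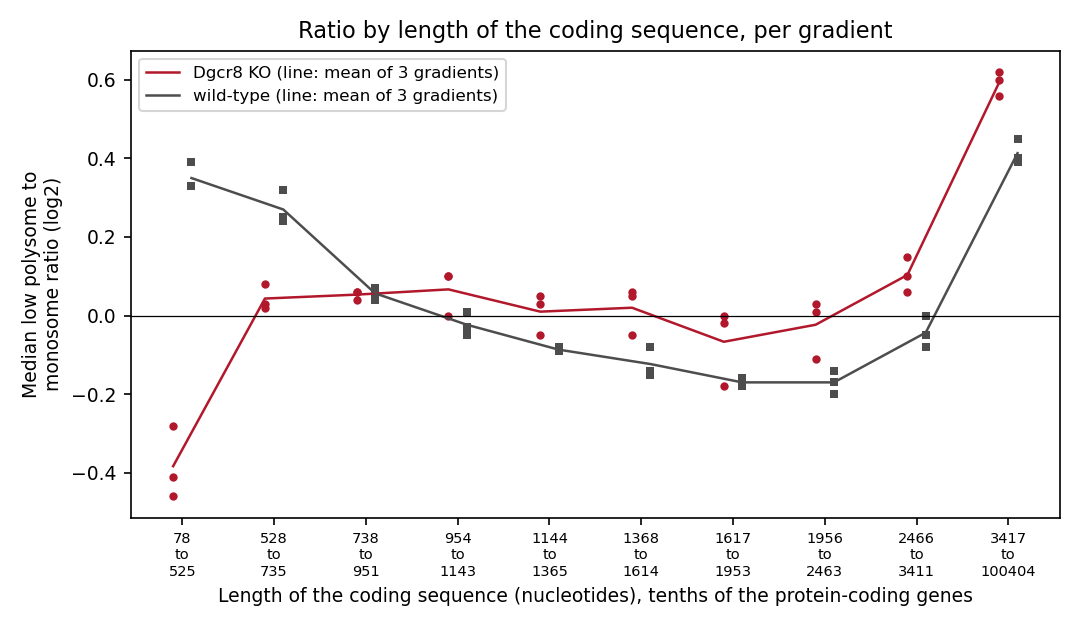
Median low polysome to monosome ratio (log2) of protein-coding genes in 10 bins of CDS length, with 1 point per gradient and a line through the mean of 3 gradients. Both genotypes lie above 0 in the longest bin, and in the shortest bin the Dgcr8 KO gradients lie at -0.41, -0.28 and -0.46 and the wild-type gradients at 0.33, 0.33 and 0.39.

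The 5 shortest coding sequences among genes called lower, with and without replicate 1 and with a mean count of 50 or more, are shown whole to give the scale of these reading frames, with the start and stop codon in capitals (GENCODE M21, GRCm38).
Rpl41: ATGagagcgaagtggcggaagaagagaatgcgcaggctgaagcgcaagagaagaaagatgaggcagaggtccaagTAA
Ost4: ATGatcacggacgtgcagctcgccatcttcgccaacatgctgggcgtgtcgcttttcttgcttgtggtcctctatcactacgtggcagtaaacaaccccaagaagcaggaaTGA
Tmsb10: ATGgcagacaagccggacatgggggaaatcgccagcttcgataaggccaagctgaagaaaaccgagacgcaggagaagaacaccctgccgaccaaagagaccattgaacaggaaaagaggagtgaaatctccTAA
Tmsb4x: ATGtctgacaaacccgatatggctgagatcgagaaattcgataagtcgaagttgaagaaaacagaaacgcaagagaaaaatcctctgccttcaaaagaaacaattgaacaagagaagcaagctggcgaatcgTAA
Rpl39l: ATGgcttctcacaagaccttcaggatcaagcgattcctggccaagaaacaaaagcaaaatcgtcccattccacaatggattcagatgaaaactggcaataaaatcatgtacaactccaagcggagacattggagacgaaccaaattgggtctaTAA
Before the stop codon they hold 25 codons in Rpl41, a large subunit ribosomal protein (chr10:128548114-128549305, minus strand), and 37 in Ost4, a subunit of the oligosaccharyltransferase (chr5:30905885-30907788, minus strand). The actin-sequestering thymosins Tmsb10 (chr6:72957347-72958748, minus strand) and Tmsb4x (chrX:167207093-167209315, minus strand) hold 44 each, and the ribosomal protein paralog Rpl39l (chr16:10170226-10174911, plus strand) 51. Rpl41 fell from 465, 743 and 690 CPM in KO monosomes to 240, 163 and 149 CPM in low polysomes (log2 -1.80, SE 0.14, adjusted p = 1.18e-14, limma). Ost4 fell from 43.4, 59.0 and 44.7 CPM to 12.9, 12.8 and 9.98 CPM (log2 -2.03, SE 0.22, adjusted p = 1.49e-10). The groups of both were apart. Tmsb10 fell from 103, 115 and 105 CPM to 32.9, 28.2 and 36.5 CPM (log2 -1.73, SE 0.14, adjusted p = 3.05e-14), and Tmsb4x from 488, 441 and 324 CPM to 156, 130 and 108 CPM (log2 -1.66, SE 0.12, adjusted p = 2.6e-16). Rpl39l fell from 200, 238 and 246 CPM to 80.5, 116 and 107 CPM (log2 -1.18, SE 0.11, adjusted p = 1.83e-12), again with no overlap. In high polysomes the KO means were 62.2 CPM for Rpl41, 4.78 CPM for Ost4, 6.74 CPM for Tmsb10, 22.4 CPM for Tmsb4x and 31.8 CPM for Rpl39l, each below its lowest low polysome library.

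In wild-type cells the 81 genes with a CDS of at most 225 nucleotides had a median of -0.07, with 3 called higher and 6 lower. The log2 ratio of Tmsb10 was -0.13, that of Tmsb4x -0.10 and that of Rpl39l 0.42. The KO minus wild-type change was called for these 3, at -1.60, SE 0.18, adjusted p = 3.77e-09 for Tmsb10, -1.56, SE 0.16, adjusted p = 4.57e-10 for Tmsb4x and -1.60, SE 0.15, adjusted p = 4.6e-11 for Rpl39l (limma). Rpl41 and Ost4 leaned to monosomes in both genotypes, with wild-type ratios of -1.38 and -1.80, and their changes of -0.42 and -0.23 were not called (limma adjusted p = 0.141 and 0.645).

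The 32 gene lists below are read against all 12851 genes tested, of which 6.44% were called higher and 10.4% lower, with a median of -0.017. Chromatin remodelling and histone methylation enzymes had 24 of 41 members called higher and 0 lower, with a median of 1.13. Besides Kmt2d, the remodeller Chd7 rose from 7.78, 9.32 and 4.31 CPM to 33.8, 32.7 and 23.6 CPM (log2 2.05, SE 0.27, adjusted p = 2.44e-08, limma), while the Polycomb methyltransferase Ezh2 (log2 0.06, SE 0.12) and Ehmt2 (-0.24, SE 0.13) were not called. Large cytoskeletal and scaffold proteins had 17 of 35 called higher and 0 lower, with a median of 0.98. The ubiquitin ligase Ubr4 rose from 65.6, 57.9 and 60.7 CPM to 281, 233 and 261 CPM (log2 2.07, SE 0.13, adjusted p = 5.53e-18), and the Golgi coiled-coil protein Golga4 was at 1.79, SE 0.19, whereas the cytolinker Dst was at 0.28, SE 0.14 and was not called. Of 55 kinesin, dynein and myosin motors, 10 were called higher, among them the dynein heavy chain Dync1h1 (1.86, SE 0.13) and Myo18a (1.48, SE 0.16), and 0 lower. Tested members of these 3 lists had median coding sequences of 5958, 11340 and 3939 nucleotides, so the lists and CDS length are not independent.

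Matrix and cholesterol genes had called members on the low polysome side. Basement membrane and matrix genes had 5 of 16 called higher and 0 lower (median 0.91). The proteoglycan gene Agrn rose from 148, 110 and 121 CPM to 408, 373 and 318 CPM (log2 1.53, SE 0.12, adjusted p = 8.7e-15, limma), and the collagen chaperone Serpinh1, with a CDS of 1254 nucleotides, was at 1.37, SE 0.12. Cholesterol synthesis and uptake genes had 4 of 22 called higher, among them the regulator Srebf2 (1.31, SE 0.12), and 0 lower (median 0.47). Solute carriers lay near the 6.44% of all genes, with 13 of 190 called higher and 8 lower. The amino acid transporter Slc7a5 rose from 227, 202 and 211 CPM to 604, 757 and 738 CPM (log2 1.71, SE 0.14, adjusted p = 2.11e-14), while the mitochondrial iron carrier Slc25a28 was at -2.06, SE 0.13. Proteasome subunits had 3 of 38 called higher, namely Psmb7 (1.15, SE 0.12), Psmd10 (1.09, SE 0.18) and, named after its values were seen, Psmb2 (1.03, SE 0.16), with a list median of 0.53, and this count too is near the share over all genes.

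**Figure D5:**
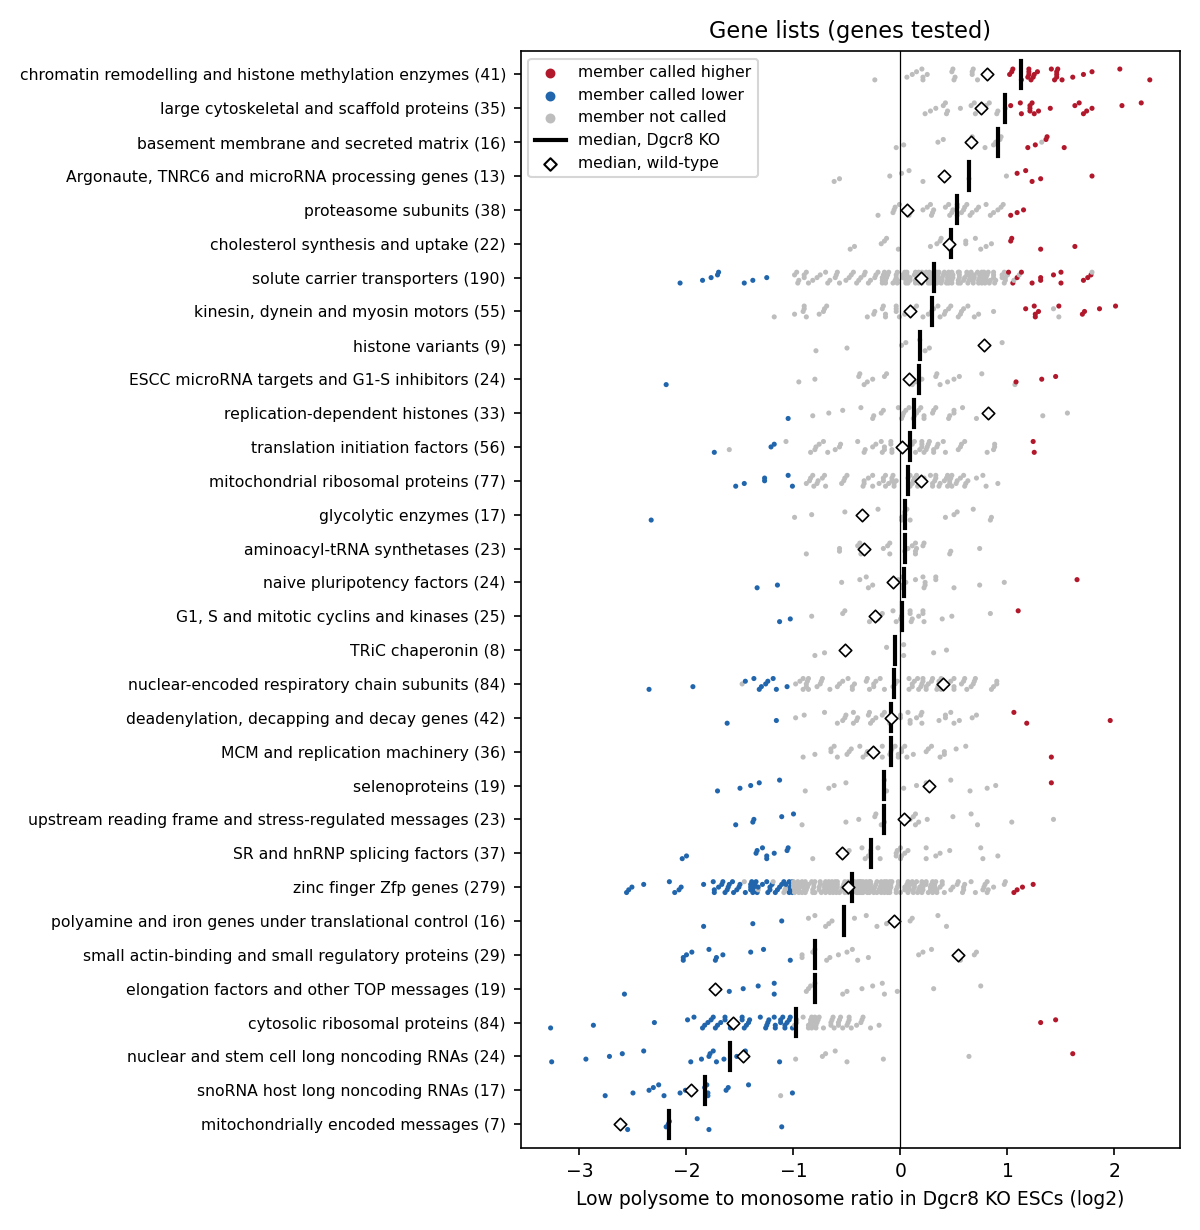
Low polysome to monosome ratio (log2) in Dgcr8 KO ESCs of the members of 32 gene lists, with 1 point per gene tested, a bar at the KO median and a diamond at the wild-type median. Medians run from -2.16 for mitochondrially encoded messages to 1.13 for chromatin enzymes, and small regulatory proteins lie at -0.80 in KO and 0.54 in wild-type cells.

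Ribosomal protein and elongation factor messages leaned to monosomes. Of 84 cytosolic ribosomal protein genes, 41 were called lower and 2 higher, 82 had a ratio below 0, and the median was -0.98. The exceptions were Rps4l (1.45, SE 0.11), which GENCODE classes as a transcribed processed pseudogene, and the intronless paralog Rpl10l (1.31, SE 0.12). Rps4l rose from 584, 471 and 528 CPM to 1570, 1310 and 1430 CPM. Counts of ribosomal protein genes are uncertain because pseudogenes share their sequence. Elongation factors and other messages with a terminal oligopyrimidine (TOP) motif had 6 of 19 called lower and 0 higher (median -0.80). This motif is a 5′ tract that ties translation to growth signalling. Of the 19 messages, 13 were not called. The ratio was below 0 in 17 and above 0 in 2, of which Eef1d was the highest (0.75, SE 0.13, not called). The poly(A)-binding protein gene Pabpc1 fell from 3010, 3850 and 3780 CPM to 968, 1140 and 1400 CPM (log2 -1.60, SE 0.09, adjusted p = 4.86e-19, limma) and the elongation factor gene Eef1a1 from 407, 485 and 623 CPM to 175, 160 and 208 CPM (log2 -1.47, SE 0.12, adjusted p = 2.43e-14). Among 56 initiation factor genes, 3 were called lower, among them the helicase Eif4a2 (-1.74, SE 0.13) and the 4E-binding protein gene Eif4ebp2 (-1.21, SE 0.10), and 2 higher, with a median of 0.09. Of 23 aminoacyl-tRNA synthetases 0 were called higher and 0 lower (limma, median 0.04), although Farsa, a phenylalanyl-tRNA synthetase subunit, was called lower (-1.05) without replicate 1.

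Nuclear regulators differed by kind. Of 279 Zfp zinc finger genes, 56 were called lower and 4 higher, with a median of -0.45. Zfp692 (-2.56, SE 0.16) and Zfp408 (-2.54, SE 0.24) were the lowest with a mean count of 50 or more. Of 37 SR and hnRNP splicing factors, 10 were called lower and 0 higher (median -0.28), among them Srsf5 at -2.00, SE 0.13. Naive pluripotency factors had a median of 0.03, with Prdm14 (-1.34, SE 0.19) and Dppa4 (-1.15, SE 0.12) called lower and Lefty2 called higher. Lefty2, an inhibitor of Nodal signalling, rose from 488, 419 and 405 CPM to 1500, 1140 and 1470 CPM (log2 1.65, SE 0.11, adjusted p = 3.67e-17, limma), and its paralog Lefty1 was at 0.97, SE 0.10, just below the fold threshold. The pair share sequence and only uniquely mapped reads were counted, so their levels are uncertain where the sequence is shared. The core factors Sox2 (-0.06, SE 0.10), Pou5f1 (0.22, SE 0.17) and Nanog (-0.55, SE 0.11), named after their values were seen, were not called.

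Argonaute and TNRC6 genes were found on the low polysome side. Of 13 Argonaute, TNRC6 and microRNA processing genes, 5 were called higher and 0 lower, with a median of 0.64. Ago2, the slicing Argonaute, rose from 130, 130 and 141 CPM to 300, 328 and 367 CPM (log2 1.31, SE 0.11, adjusted p = 1.18e-13, limma), and Ago3 from 6.11, 6.60 and 9.40 CPM to 23.7, 27.2 and 27.3 CPM (log2 1.79, SE 0.26, adjusted p = 2.06e-07). The others, named after their values were seen, were the scaffold genes Tnrc6a (1.23), Tnrc6b (1.09) and Tnrc6c (1.17), and Tnrc6b was not called without KO replicate 3. In wild-type cells Ago2 was at 1.11 and Ago3 at 1.39, and their changes between genotypes were not called (limma adjusted p = 0.443 and 0.613). Targets of the ESC cell cycle (ESCC) microRNAs, to which the miR-290 cluster belongs, were listed with inhibitors of the G1-S transition, and 3 of 24 were called higher and 1 lower (median 0.17 in KO and 0.08 in wild-type). The cell cycle inhibitor gene Cdkn2a was at 1.45, SE 0.12 and Arid4b at 1.32, SE 0.19. Of 42 deadenylation, decapping and decay genes, 3 were called higher, among them Smg1, the kinase of nonsense-mediated decay (1.96, SE 0.17), and Pan3 (1.18, SE 0.17), and 2 lower, of which Btg1 (-1.16, SE 0.16) was not called without replicate 1.

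Small and stress-regulated messages held further members of the monosome side. Of 29 small actin-binding and regulatory proteins, 11 were called lower and 0 higher (median -0.80). The metallothionein gene Mt1, whose product binds zinc and copper, fell from 3050, 3850 and 3560 CPM to 899, 1220 and 919 CPM (log2 -1.79, SE 0.09, adjusted p = 5.57e-21, limma). Selenoproteins, which read a UGA codon as selenocysteine, had 5 of 19 called lower and 1 higher. The glutathione peroxidase gene Gpx1 fell from 6780, 7020 and 7090 CPM to 2480, 2510 and 2380 CPM (log2 -1.50, SE 0.09, adjusted p = 1.17e-18) and Gpx4, which reduces lipid peroxides, from 97.3, 123 and 129 CPM to 28.3, 34.3 and 44.9 CPM (log2 -1.71, SE 0.16, adjusted p = 5.94e-12). Neither overlapped between the fractions. Among 23 messages with upstream reading frames or under stress control, 5 were called lower and 0 higher, with the stress genes Ddit3 (-1.54, SE 0.20) and Ppp1r15a (-1.37, SE 0.14) among them. Atf4, an effector of the integrated stress response named after its values were seen, fell from 400, 537 and 436 CPM to 227, 229 and 227 CPM (log2 -1.0, SE 0.11, adjusted p = 1.07e-10), at the fold threshold, and was not called without KO replicate 2. Of 16 polyamine and iron genes under translational control, 3 were called lower, among them Oaz1, the antizyme made by frameshifting (-1.11, SE 0.17), and 0 higher.

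Respiratory chain subunits encoded in the nucleus had 11 of 84 called lower and 0 higher, with a median of -0.06. The cytochrome oxidase subunit gene Cox7c, with a CDS of 192 nucleotides, fell from 169, 229 and 232 CPM to 27.0, 52.9 and 46.0 CPM (log2 -2.35, SE 0.15, adjusted p = 9.42e-18, limma), while the ATP synthase gene Atp5b, with 1590 nucleotides, was at 0.87, SE 0.10 and was not called. Mitochondrial ribosomal proteins had 6 of 77 called lower and 0 higher (median 0.07). Neither share was far from the 10.4% over all genes. Of 33 replication-dependent histones 1 was called lower, and of 9 histone variants and 8 TRiC chaperonin subunits 0 were called (limma). Without replicate 1, 0 of these histones were called lower and 1 histone variant higher. Counts of 3′ ends may miss messages without a poly(A) tail, and their coverage of replication-dependent histone messages was not tested. Replication machinery had 1 of 36 called higher, the polymerase gene Pole (1.41, SE 0.23), and glycolytic enzymes 1 of 17 lower. Of 25 cyclins and kinases, 1 was called higher, the cyclin gene Ccne1 (1.10, SE 0.11), and 2 lower, of which the kinase gene Cdk2 (-1.13, SE 0.13) was not called without replicate 1.

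Further called members, from lists with few calls, were chosen after their values were seen. On the low polysome side they included Selenon (1.41), Eif3j1 (1.25), Eif4ebp3 (1.24), Sar1b (1.08), the exonuclease gene Xrn1 (1.06), the sterol enzyme genes Msmo1 (1.04) and Fdps (1.03), and the matrix genes Lama1 (1.36), Lama5 (1.26) and Sparc (1.19). On the monosome side they included the histone gene Hist1h4b (-1.05), the enolase gene Eno2 (-2.33), the cell cycle inhibitor gene Cdkn2c (-2.19), the decay factor gene Zfp36 (-1.62), Cdc25c (-1.03), the ferritin gene Ftl1 (-1.84), Sat1 (-1.38), Eif4b (-1.18), Ccng1 (-1.11), Rnaseh1 (-1.38) and the selenoprotein genes Selenow (-1.40), Selenoh (-1.32) and Selenoo (-1.13).

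Leaving out low polysome replicate 1 moved some of these calls across a threshold. Of the genes named with the lists, Hist1h4b (-0.90, adjusted p = 0.0831), Sat1 (-0.88), Selenoo (-0.98), Eif3j1 (0.95), Lama1 (0.93) and Msmo1 (0.95) were not called without it, besides H19, Btg1 and Cdk2 (limma). The histone variant gene H2afy2 (1.11) was then called higher and the licensing factor gene Cdt1 (-1.03) lower, where neither was called with it. The count of higher calls became 4 for matrix genes, 3 for cholesterol genes, 1 for initiation factors, 2 for selenoproteins, 18 for solute carriers and 0 for nuclear and stem cell noncoding transcripts. The count of lower calls became 14 for these noncoding transcripts, 45 for ribosomal proteins, 7 for TOP messages, 5 for initiation factors, 4 for selenoproteins, 2 for polyamine and iron genes, 6 for stress-regulated messages, 12 for small regulatory proteins, 54 for Zfp genes and 9 for splicing factors. It became 7 for solute carriers, 5 for mitochondrial ribosomal proteins, 2 for glycolytic enzymes, 1 for cyclins and kinases, 1 for decay genes, 1 for replication machinery and 1 for synthetases. No other list changed its counts, apart from the histones above.

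To place the KO ratio beside the control, the same comparison was made in wild-type gradients, where 1837 genes (14.3%) were called, 579 higher and 1258 lower. The calls of the genotypes come from separate libraries, and 938 genes were called in the same direction in both, which is 43.3% of the KO calls and 51.1% of the wild-type calls, while 4 were called in opposite directions. Spearman's rho of the ratio across genes was 0.423 to 0.560 between KO and wild-type gradients, against 0.653 to 0.734 within KO and 0.628 to 0.664 within wild-type. The difference itself, tested as the interaction of genotype and fraction, was called for 699 genes (5.44%), 191 higher and 508 lower in KO (limma). Under total counts in place of TMM scaling the split was 101 higher and 708 lower, with the median change over all genes at -0.06 in place of 0.07, and without wild-type replicate 2 it was 94 and 610. The wild-type monosome libraries were the smallest, at 1151649 to 1578231 counts.

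Many of the genes lower in KO were short. Of 460 protein-coding genes with a CDS whose ratio was called lower in KO by the interaction, 307 (66.7%) were in the bin with the shortest CDS, where the median change was -0.73 and 11 genes were called higher. In the longest bin 16 were called higher and 2 lower. Over all 12851 genes tested, 3.95% were called lower and 1.49% higher by the interaction. Among the lists, 18 of 29 small regulatory proteins were called lower by the interaction and 0 higher. Their median log2 ratio was -0.86 to -0.67 over the KO gradients and 0.50 to 0.53 over the wild-type gradients. Respiratory chain subunits had 26 called lower and 4 higher of 84, and selenoproteins 7 lower and 0 higher of 19. In the other direction, 18 of 84 ribosomal protein genes were called higher by the interaction and 3 lower, with gradient medians of -1.11 to -0.77 in KO and -1.53 to -1.51 in wild-type. TOP messages had 4 of 19 called higher and 0 lower.

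Fam89a had 28.4, 19.4 and 28.6 CPM in the KO monosome libraries and 25.5, 22.7 and 21.5 CPM in the low polysome libraries, with overlapping groups. Wild-type cells had 8.71, 10.3 and 8.84 CPM and 36.3, 34.6 and 39.7 CPM, and the change was the most negative among the genes named for it (-2.07, SE 0.33, adjusted p = 7.39e-06, limma). The other 4 were the histone H4 gene Hist1h4d (change -1.98, SE 0.29, adjusted p = 1.49e-06), the noncoding RNA Gm31659 (-1.96, SE 0.19, adjusted p = 9.65e-11), Tunar (-1.95, SE 0.44, adjusted p = 0.00117) and the noncoding RNA Eprn (-1.94, SE 0.26, adjusted p = 1.27e-07). The limit of 3′ end counts given with the histone list holds for Hist1h4d as well. Tunar had 19, 17 and 15 reads in the KO monosome libraries and 9, 8 and 10 in the low polysome libraries. In wild-type cells it had 44.2, 51.6 and 33.6 CPM in monosomes and 64.9, 64.7 and 58.4 CPM in low polysomes. The KO side of the Tunar change rests on few reads, which leaves its size less certain. Ppp1r15a stood at a wild-type ratio of 0.41 (change -1.78, SE 0.19, adjusted p = 6.39e-10) and Atf4 at 0.67 (change -1.67, SE 0.15, adjusted p = 1.11e-11).

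On the other side, the elongation factor subunit gene Eef1b2 had 2060, 1880 and 2270 CPM in the KO monosome libraries and 1170, 1050 and 1200 CPM in the low polysome libraries. Wild-type cells had 6400, 6550 and 7090 CPM and 1060, 998 and 1240 CPM (change 1.75, SE 0.14, adjusted p = 4.43e-12, limma), so the genotypes overlapped in low polysomes and not in monosomes. The processed pseudogenes Rpl14-ps1 (1.60, SE 0.30, adjusted p = 0.00011) and Gm8420 (1.59, SE 0.27, adjusted p = 1.93e-05) followed. The change of H19 (4.03, SE 0.61, adjusted p = 2.04e-06) was smaller without KO low polysome replicate 1 (1.51, adjusted p = 0.00394). The cyclin gene Ccnd2 (change 1.67, SE 0.55, adjusted p = 0.0324) had 143, 41.0 and 46.8 CPM in the KO low polysome libraries, of which replicate 1 was the highest. Its change was not called without that library (1.09, adjusted p = 0.0538), nor without wild-type replicate 1 (1.85, adjusted p = 0.0524), 2 (1.30, adjusted p = 0.278) or 3 (1.77, adjusted p = 0.102).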

How the data were processed

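The measurements were 3′ end counts of transcripts in sucrose gradient fractions. The authors trimmed reads with cutadapt 1.14, mapped them to mm10 with STAR 2.5.3a, kept uniquely mapped reads and counted them per gene by strand with featureCounts 1.5.3 on GENCODE M14, with ribosomal RNA genes removed, and deposited raw counts of 18 libraries. The 92 spike-in entries were left out.

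Genes with at least 3 CPM in at least 3 libraries were scaled by TMM (edgeR 4.0.16) and fitted with limma-voom 3.58.1 in R 4.3.3 over all 18 libraries, with each gradient as a block and fraction effects per genotype. Calls needed a Benjamini-Hochberg adjusted p under 0.05 and an absolute log2 ratio over 1. Printed levels are CPM of library totals scaled by the TMM factors, whereas the floor of 3 counts was converted to CPM with raw totals. Ratios per gradient used a prior count of 2. The block follows the labels, which give each library a genotype, a replicate number and a fraction. Libraries of a genotype with the same number were taken as fractions of the same gradient. Deviations from the group means correlated between same-numbered monosome and low polysome libraries at 0.0762, 0.135 and 0.0773 in KO and 0.058, 0.066 and 0.067 in wild-type, and at -0.0785 to -0.00428 between other numbers.

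Features came from GENCODE M21 (51274 genes matched), with the principal or else the longest CDS. Correlations and exact permutation tests used SciPy 1.17.1, and the fit was tested on simulated data. Intervals and floors cover counting error only.

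Named genes were Dgcr8, Ddx6, the 10 called genes with the largest ratio in each direction (mean count of 50 or more, all 3 gradients in that direction, called without low polysome replicate 1), the 2 highest and 2 lowest members of each list with that mean count, and the 5 called genes with the largest KO minus wild-type change in each direction (mean count of 50 or more over both genotypes, 3 gradients of a genotype beyond the 3 of the other). Not each of these is printed. Members and lists were chosen with earlier results of these data known. Alternatives were other scalings, tools, filters, library sets and left-out replicates.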

Additional observations from a re-analysis of the deposited data

Results flagged for a closer look

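The low polysome to monosome ratio differed between KO and wild-type cells in 699 genes by the test of the interaction (limma, adjusted p under 0.05 and an absolute change over 1 on the log2 scale). Among those named for it, the change was positive for H19 (4.03), Eef1b2 (1.75), Ccnd2 (1.67), Rpl14-ps1 (1.60) and Gm8420 (1.59). It was negative for Fam89a (-2.07), Hist1h4d (-1.98), Gm31659 (-1.96), Tunar (-1.95) and Eprn (-1.94). In each of these 10 genes the 3 gradients of a genotype lay beyond the 3 of the other, which the naming rule required.

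For H19 and Ccnd2 the level in KO low polysome replicate 1 stood apart from replicates 2 and 3, and the values without it are given above. The other 8 genes kept the call without it, and the low KO counts of Tunar are given above. What sets that library apart was not tested.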

How the results depend on the processing

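Without the fold threshold, 6113 genes passed, 3082 higher and 3031 lower, and 1842 passed for the KO minus wild-type change. Without the replicate block, 2161 genes were called, 815 higher and 1346 lower, and 647 for the change (158 and 489). The split of KO calls was 645 and 1539 under total counts, 813 and 1350 with DESeq2 size factors, 867 and 1303 in edgeR, 780 and 1228 in DESeq2, and 726 and 1228 with only the 9 KO libraries. Leaving out a KO replicate gave 1958 to 2190 calls (739 to 890 higher and 1198 to 1300 lower), a rho of CDS length of 0.191 to 0.239 and a lncRNA gap of -1.37 to -1.28. Leaving out a wild-type replicate gave 771 to 810 higher and 1307 to 1351 lower, and leaving out a replicate of either genotype 632 to 830 calls for the change. The lncRNA gap was -1.43 in DESeq2, -0.47 with no filter on low counts (25635 genes) and -1.48 with a stricter filter of 10 CPM (10162 genes). The cause was not tested, apart from the genes that each filter adds or removes. H19 turned negative without low polysome replicate 1 (-0.91) and without KO replicate 1 (-0.86), and so did Hbb-y (-1.10 and -1.23), while leaving out the other libraries gave up to 2.67 for H19 and 3.13 for Hbb-y. Over the values of named genes under all alternatives, 2186 kept their direction and side of the threshold, 26 lost the call, 30 gained it and 4 reversed. The depth of the monosome libraries limits genes near 3 counts, whose ratios are the least certain.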
